A study of Rattus norvegicus with 4 samples.

Results

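Dividing keratinocytes of the day 4 rat skin wound were the epidermal cells that carried transcripts of Mki67 and Top2a, both of which are made during the late phases of the cell cycle. Of 32801 cell barcodes that passed the quality limits in all 4 libraries, 8048 met the keratinocyte rule and 782 of these were dividing. The remaining 7266 were non-dividing keratinocytes, which served as the reference class. A barcode had to hold at least 1000 UMIs (unique molecular identifiers, each standing for 1 captured transcript) from at least 250 genes, with at most 20% mitochondrial UMIs. A keratinocyte gave at least 0.5% of its UMIs to the basal keratins Krt5 and Krt14, under 1% to Col1a1, Col3a1 and Dcn, and under 0.1% to the differentiation keratins Krt1 and Krt10. The dividing cells were chosen by measured transcripts: each also held at least 5 UMIs of Mki67 and Top2a together. The rule also names Col1a2, which was not analysed here.

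The study measured single cells of rat (Rattus norvegicus) skin in 10x Genomics droplets at day 4 of a wound healing model. The injected group had received purified migrasomes, vesicles that migrating cells leave behind on retraction fibres, and the uninjected group had received nothing, so the effect of an injection and that of its contents cannot be told apart. Each group had 2 libraries, and the labels name no strain, age, genotype or source of the migrasomes. No label states that the replicates came from separate animals, so p-values measure the spread between libraries, which may be technical.

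In healthy epidermis, division is confined to keratinocytes of the basal layer and the hair follicle, and daughter cells leave the cycle as they differentiate. After wounding, keratinocytes behind the migrating edge divide and supply cells to the epithelial tongue that covers the gap. Genes of DNA replication are transcribed around the start of S phase under E2F control. Genes of the spindle, the kinetochore and mitotic exit peak in G2 and mitosis, and many of their promoters carry CCAAT boxes and a cell cycle homology region (CHR).

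The label was checked against marker genes. Dividing cells of each library carried the keratinocyte markers: the 13 genes took 3.01 and 4.59% of UMIs in uninjected wounds and 4.91 and 4.78% in injected wounds. Krt5 stood at 7401 to 11454 CPM (the gene's UMIs scaled to the total UMIs of the summed class) and Tp63, the master regulator of stratified epithelium, at 128 to 268 CPM. Krt14 stood at only 610.1 to 737 CPM. The rule set a minimum for Krt5 and Krt14, which are among the 13 genes, so they do not check the label. Markers of other cell types were low in dividing keratinocytes. The 9 macrophage markers together held 76 and 190 UMIs in uninjected wounds and 76 and 68 in injected wounds, of which Lyz2 gave 32 to 130, while the defining C1qa, C1qb and C1qc held at most 2 UMIs each in a library. The fibroblast list of 7 measured genes took 0.00368 and 0.0237% of UMIs in uninjected wounds and 0.00844 and 0.00994% in injected wounds, with none of these genes at 0 except Col6a1 in uninjected 1. Col1a1, Col3a1 and Dcn of this list were capped by the rule. The dividing sum of uninjected 2 held 2231 UMIs of that list, and 820 of them lay in 1 cell. Fibroblast-marked cells, with at least 5 UMIs of that list, made up 2.13 and 22.4% of dividing cells in uninjected wounds. In injected wounds they made up 15.3 and 17.7%. Only in uninjected 2 did the list take more in dividing than in non-dividing cells, where it took 0.0148%. Neutrophil markers, led by S100a8 and S100a9, which wound keratinocytes make as well, took 0.0254 to 0.0963%. The 6 skeletal muscle markers stood apart in injected 1, with 141 UMIs, 122 of them from Des, against 2 to 19 UMIs in the other libraries.

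Some library differences preceded any comparison. Dividing keratinocytes of uninjected 1 stood apart by genes of ribosomal proteins, which took 20.0% of their UMIs, where uninjected 2 gave 10.2% and the injected libraries gave 8.94 and 10.4%. Non-dividing keratinocytes of uninjected 1 showed 19.6%. Summed dividing cells held 5189277 and 9398497 UMIs uninjected, and 5308293 and 5632531 injected. Between 13 and 29 barcodes were shared by pairs of libraries, and 1 of these was a dividing keratinocyte in both. Scrublet marked 42 of the 782 dividing keratinocytes as likely doublets, and they were kept in the main values.

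Dividing keratinocytes were deep cells. Their median was 28069.5 and 36924 UMIs uninjected, and 32892 and 28977 injected, against 13714 to 18035.5 in non-dividing keratinocytes. A minimum of 5 UMIs passes deeper cells more readily, and the rule's part in this gap was not tested. Classed after thinning to 10000 UMIs with at least 2, dividing cells had median full depths of 24945 and 33074 uninjected, and 28366 and 26381 injected. Other cells had 17567.5 to 20752.5. Classed at 5000 UMIs with at least 5, the 3 to 8 dividing cells a library had medians of 11562 to 26013, against 15854.5 to 19753.5. They were shallower than other cells only in uninjected 1. Just inside the limit, 186 cells held exactly 5 UMIs of the pair, and just outside it 208 cells held 4. At the other end, 5423 keratinocytes held none. The upper limit on Krt1 and Krt10 removed 26 otherwise dividing cells, 22 of them from injected 2 and 4 from uninjected 2.

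The genes that led the dividing profile were mitotic, and their promoter sequences are shown because members of these lists were high together. The 150 bases before the start site were taken from RefSeq (build GRCr8) for Plk1, Cenpf, Nusap1 and Ttk, the mitotic genes with the highest class ratios and a matched promoter. Plk1 is a kinase that drives entry into mitosis, Cenpf a kinetochore protein, Nusap1 a spindle-associated protein and Ttk the kinase that starts the spindle checkpoint. The windows are Plk1 at chr1:186147508-186147657 on the plus strand, Cenpf at chr13:103760887-103761036 on the minus strand, Nusap1 at chr3:127057145-127057294 on the plus strand and Ttk at chr8:93634489-93634638 on the plus strand. Capitals mark the CCAAT box (CCAAT or its reverse complement ATTGG), and none of the 4 windows held the CHR motif TTTGAA on either strand.
Plk1: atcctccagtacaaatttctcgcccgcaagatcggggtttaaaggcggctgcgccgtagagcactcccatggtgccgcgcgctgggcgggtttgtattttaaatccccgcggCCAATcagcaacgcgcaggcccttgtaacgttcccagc
Cenpf: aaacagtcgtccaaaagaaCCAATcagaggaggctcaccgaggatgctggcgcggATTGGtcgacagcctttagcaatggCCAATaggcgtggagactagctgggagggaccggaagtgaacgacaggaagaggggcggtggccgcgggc
Nusap1: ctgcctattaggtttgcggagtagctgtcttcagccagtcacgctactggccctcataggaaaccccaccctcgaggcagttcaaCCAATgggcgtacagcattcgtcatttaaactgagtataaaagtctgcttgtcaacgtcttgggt
Ttk: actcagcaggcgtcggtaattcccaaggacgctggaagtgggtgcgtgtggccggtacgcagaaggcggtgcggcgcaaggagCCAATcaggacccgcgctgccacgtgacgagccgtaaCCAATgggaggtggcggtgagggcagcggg

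Hmmr, which organises spindle microtubules, and Kifc1, a minus-end motor that bundles spindle poles, are the mitotic genes of highest class ratio whose window held both motifs. They were picked after the motif search. Hmmr lies at chr10:25665216-25665365 on the minus strand and Kifc1 at chr20:5000779-5000928 on the plus strand. Capitals mark TTTGAA or its reverse complement TTCAAA, and CCAAT or ATTGG. In Hmmr the CHR motif began 46 bases before the start site and the CCAAT box 76 bases before it. In Kifc1 the CHR motif began 22 bases before the start site and the CCAAT boxes 99 and 70 bases before it.
Hmmr: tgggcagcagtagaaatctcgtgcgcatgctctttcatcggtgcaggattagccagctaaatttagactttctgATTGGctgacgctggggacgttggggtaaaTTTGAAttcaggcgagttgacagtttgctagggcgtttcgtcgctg
Kifc1: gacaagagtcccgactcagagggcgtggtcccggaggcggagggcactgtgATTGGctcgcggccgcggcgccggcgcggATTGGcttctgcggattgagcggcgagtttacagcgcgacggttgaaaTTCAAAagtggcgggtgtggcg

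For DNA replication, the windows of Cdc45, part of the replicative helicase, and Pole, the leading-strand polymerase, are shown because they had the highest class ratios of the replication list. Cdc45 lies at chr11:95690028-95690177 on the plus strand and Pole at chr12:52053663-52053812 on the minus strand. Capitals mark the E2F motif TTTGGCG, which Cdc45 held 59 bases before its start site. Pole held neither TTTGGCG nor TTCCCGC on either strand.
Cdc45: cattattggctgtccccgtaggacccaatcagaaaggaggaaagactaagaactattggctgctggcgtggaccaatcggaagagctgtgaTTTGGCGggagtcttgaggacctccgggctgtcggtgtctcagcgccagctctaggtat
Pole: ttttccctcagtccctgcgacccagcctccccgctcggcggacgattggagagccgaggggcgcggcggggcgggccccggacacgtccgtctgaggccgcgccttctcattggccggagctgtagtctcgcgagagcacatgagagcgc

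Over the 4 mitotic lists, 66 of 79 gene entries matched a promoter. The spindle list has 24 members but 25 entries, as 1 symbol occurs more than once, and its entries were not matched. TTTGAA was found in 21 of the 66 windows (31.8%), against 9.12% of 27457 windows of the same length. CCAAT was found in 35 of the 66 mitotic and 14 of the 23 replication windows (60.9%), against 23.7% of all windows, and both motifs in 13 of the mitotic windows (19.7%), against 2.28%. Of 23 matched replication genes, 8 (34.8%) held TTTGGCG or TTCCCGC, against 3.14% of all windows, while 2 of the 66 mitotic genes (3.03%) did. Both strands were searched, and no motif contains another. These are counts of letters and not of bound sites.

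Which transcripts set dividing keratinocytes apart was described library by library, with no test, because Mki67 and Top2a had chosen the cells. The ratio is of CPM + 1 between the dividing and non-dividing sums of the same library, over 8956 genes with a mean of at least 5 CPM. By this measure 101 genes (1.13%) were higher by at least 1 log2 unit in each of 4 libraries and 19 (0.212%) lower by as much. Top2a and Mki67, the gate genes by which the rule chose the cells, were counted among the 101. They had median log2 ratios of 3.75 and 2.81. The median over all measured genes was 0.02.

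Spindle and anaphase genes gave the highest ratios. Ube2c, the ubiquitin-conjugating enzyme of the anaphase-promoting complex, stood at 163 and 126 CPM in uninjected wounds and 122 and 180.4 CPM in injected wounds in dividing cells. In non-dividing cells it stood at 33.7, 15.6, 15.6 and 17.2 CPM in the same order, and the median ratio was 7.51-fold. No dividing value overlapped a non-dividing one. Kif11 (4.14-fold), Prc1 (4.08-fold), AABR07000658.2 (4.01-fold), Pttg1 (3.61-fold) and Cenpw (3.52-fold) were also among the 12 of largest ratio at 50 CPM or more. Of the anaphase and cytokinesis list, 10 of 12 measured genes were higher by 1 log2 unit in each library (median log2 ratio 1.92), among them Cdca3 (5.33-fold), Racgap1 (5.26-fold) and Ect2 (4.76-fold), the last 2 being regulators of the cleavage furrow. Spindle motors and microtubule regulators followed with 18 of 23 (median 2.03). Nusap1 stood at 66.5, 33.4, 35.4 and 44.9 CPM against 12.2, 4.75, 5.95 and 5.27 CPM, Hmmr at 18.5 to 24.1 CPM against 2.33 to 4.84 CPM and Kifc1 at 20.5 to 32.1 CPM against 3.58 to 5.04 CPM. The other 5 of the 23 did not reach 1 log2 unit in each library, among them the motor Kif18a (1.59-fold), named after its values were seen.

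Mitotic kinases and the checkpoint were high in 13 of 16 measured genes (median log2 ratio 1.85). Plk1 stood at 23.1, 17.4, 20.2 and 29.5 CPM in dividing and 3.98, 2.18, 2.47 and 2.63 CPM in non-dividing cells, in the order uninjected 1, uninjected 2, injected 1 and injected 2, and the lowest dividing value was above the highest non-dividing one. Ttk (5.43-fold), Aurkb (4.74-fold), the kinase of the chromosomal passenger complex, and Bub1b (4.69-fold), a checkpoint protein, followed. Birc5 and Cdca8, further subunits of the passenger complex, had ratios of 3.94-fold and 3.79-fold. Kinetochore and centromere genes were high in 13 of 19 (median 1.75), led by Cenpf at 59.2 to 80.8 CPM against 9.67 to 14.1 CPM. Spc25 (4.90-fold) and Ndc80 (4.55-fold), which form the microtubule-binding complex, came next. Chromosome condensation genes were high in 7 of 17 (median 1.15), with the condensin subunits Smc2 (3.40-fold), Smc4 (2.75-fold), Ncapg (3.48-fold) and Ncaph (2.78-fold) ahead.

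Replication genes were raised less. Of 20 measured genes of origin licensing and the replication fork, 1 was higher by 1 log2 unit in each library. By any amount, 19 of the 20 were higher in each library, against 33.4% of all genes, and the list median was 0.78. Cdc45 stood at 11.2, 20.6, 22.8 and 24.7 CPM against 6.56, 6.95, 7.93 and 9.93 CPM. Pcna, the sliding clamp, singled out after its values were seen, stood at 185, 244, 257 and 254 CPM against 163, 206, 198 and 222 CPM, so the classes overlapped across libraries. All 10 nucleotide supply genes were higher in each library (median 0.93), with Rrm2, the regulated subunit of ribonucleotide reductase, at 3.34-fold and Tyms, thymidylate synthase, at 2.16-fold. Of replication-dependent chromatin and repair genes, 3 of 12 were higher by 1 log2 unit in each library (median 0.99), and the histone chaperone Asf1b led at 3.43-fold.

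Among cyclins, kinases and inhibitors, 3 of 23 measured genes were higher by 1 log2 unit in each library. These were Cdk1, Ccna2 and Ccnb1, the kinase and cyclins that act from S phase to mitosis. Cdk1 stood at 93.1 and 124 CPM in uninjected wounds and 144 and 135 CPM in injected wounds, against 19.5 to 23.2 CPM in non-dividing cells. The remaining 20 stayed within that limit in at least 1 library, and the list median was 0.43. Cdkn1a, the p21 inhibitor that holds cells before S phase and a gene singled out after its values were seen, stood at 532, 602, 599 and 1032 CPM in dividing cells. In non-dividing cells it stood at 602, 638, 669.8 and 1105 CPM, so dividing keratinocytes carried it at nearly the level of their neighbours. Mybl2, a subunit of the complex that binds CHR promoters, had a ratio of 2.82-fold.

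**Figure D1:**
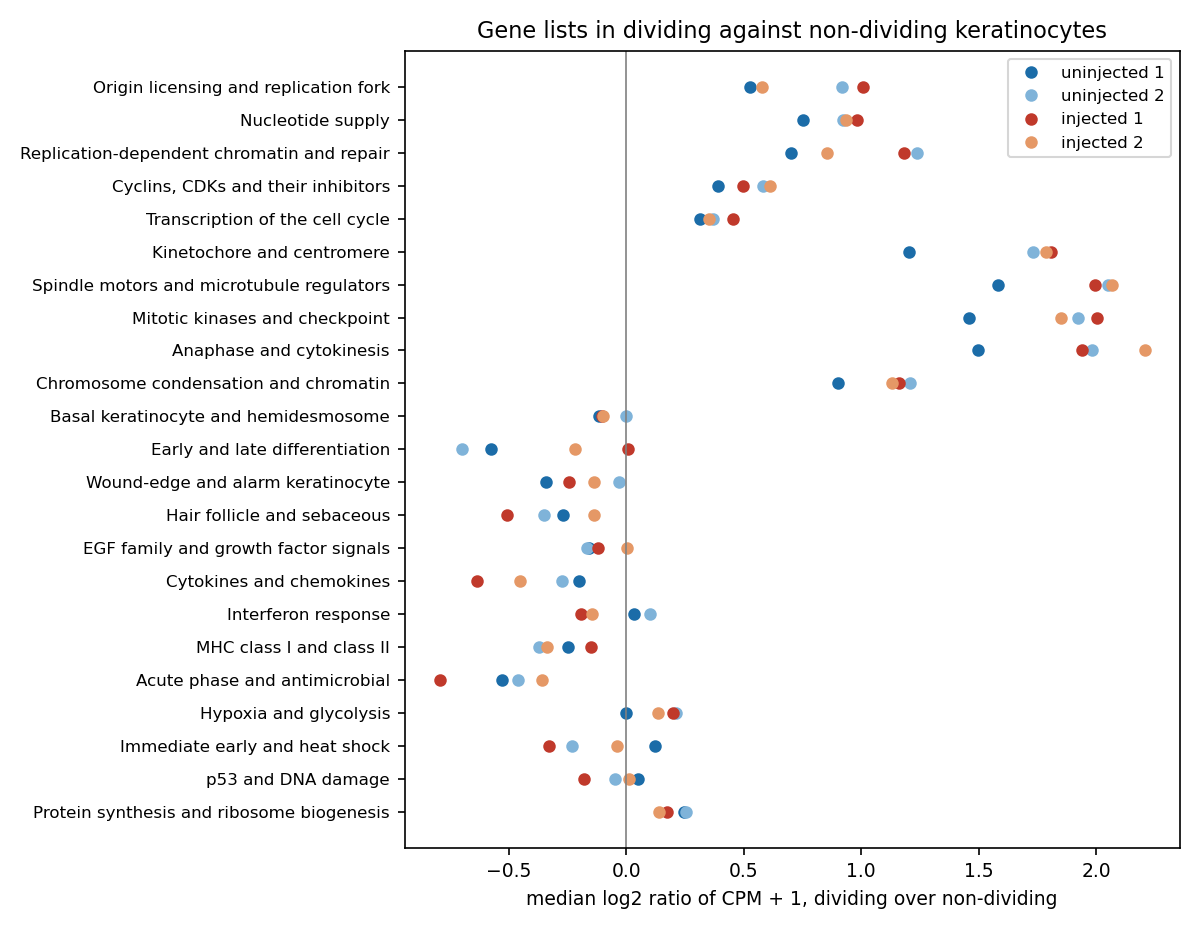
Median log2 ratio of CPM + 1, dividing over non-dividing keratinocytes, for the measured members of 23 gene lists. Each point is 1 library, colours give the library and the vertical line marks equal levels. The 4 mitotic lists lie farthest right, the replication lists lie between them and the line, and the acute phase, differentiation and cytokine lists lie to its left in most libraries.

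Dividing keratinocytes had less of several transcripts. Apoe, a lipid carrier, stood at 3509 and 4236 CPM in uninjected wounds and 5763 and 7154 CPM in injected wounds. The non-dividing levels were 6624, 12736, 18924 and 17819 CPM, a median ratio 2.74-fold lower in dividing cells. Krt15, a keratin of the quiescent basal layer and the bulge, stood at 390.4, 855, 917 and 1186 CPM against 656, 2465, 3273 and 2545 CPM, and the libraries overlapped because uninjected 1 was low in both classes. Postn, a matricellular protein that is also one of the fibroblast markers used here, was 3.19-fold lower, and up to 59.7% of it in dividing cells could be free RNA. Cxcl14, a chemokine of resting skin, was 1.83-fold lower. Timp2 and Cst3 were lower by at least 1 log2 unit in each library, with median ratios 2.35-fold and 2.15-fold lower. Igfbp7 (2.11-fold), Slc6a14 (2.03-fold), LOC685680 (2.00-fold), Klhl29 (2.00-fold) and Dnajb9 (1.96-fold) were lower in each library, but not by 1 log2 unit in each. The basal list as a whole stayed near equality (median -0.05, with Krt5 and Krt14 of the gate among its members). Krt75 and Krt79, keratins of the follicle, were 5.37-fold and 3.76-fold lower, though Krt79 reached 96.4 CPM in injected 2. Of the early and late differentiation list, 6 of 12 measured genes were lower in each library (median -0.30), against 25.7% of all genes, with Klk7, a protease of shedding, and Calml3 lowest. This list holds Krt1 and Krt10, which the gate capped in both classes.

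Several inflammatory transcripts were also fewer in dividing keratinocytes. Of 22 measured cytokines and chemokines, 11 were lower in each library (25.7% of all genes were), with a median log2 ratio of -0.35. Ccl7, a monocyte attractant, stood at 63.4, 50.4, 64.6 and 65.9 CPM against 117, 127, 220.2 and 159 CPM, which did not overlap. Il1b and Il1a were 2.08-fold and 2.16-fold lower by the median. With doublets removed from both classes the log2 ratio of Il1b went from -1.06 to -0.13 and that of Il1a from -1.11 to -0.86, while Ccl7 stood at -1.30 and Slpi, described next, at -0.96. All of the Il1b and up to 59.5% of the Il1a in dividing cells could be free RNA by the limit described with the processing. Slpi, a protease inhibitor that protects the wound from neutrophil elastase, stood at 147, 111, 80.8 and 184 CPM against 454, 254, 192 and 366 CPM. Of 12 measured MHC genes, 9 were lower in each library (25.7% of all genes were; median -0.26), and B2m, the light chain of class I, was 1.46-fold lower. Pan-leukocyte genes took 0.00296 to 0.00405% of UMIs in dividing cells and 0.00472 to 0.00914% in non-dividing cells. With doublets removed, 8 of 20 measured cytokines and 5 of 10 measured MHC genes were lower in each library, with medians of -0.27 and -0.22.

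Growth signals and metabolism showed a mixed picture. Nrg1, a ligand of the ErbB receptors, was abundant in both classes and lower in dividing cells, at 1264, 1493, 1627 and 2249.8 CPM against 1849, 2611, 3468 and 3605 CPM. Hbegf was 1.52-fold lower, while Ereg, another EGF receptor ligand, was 1.49-fold and the Notch ligand Jag2 1.54-fold higher by the median. Of 20 measured hypoxia and glycolysis genes, 10 were higher and 4 lower in each library, against 33.4% and 25.7% of all genes (median 0.16), led by the glycolytic enzymes Pgk1 (1.45-fold), Pfkl (1.41-fold) and Pgam1 (1.39-fold). Of 19 genes of protein synthesis and ribosome biogenesis, 11 were higher and 1 lower in each library (median 0.23), with the polyamine enzyme Srm at 1.34-fold. The mitochondrial chaperones Hspe1 and Hspd1 were 1.67-fold and 1.45-fold higher. These shifts were smaller than those of the mitotic lists. Medians for the other lists, none with a gene higher by 1 log2 unit in each library, were 0.36 for cell cycle transcription, -0.17 for wound-edge, -0.37 for follicle, 0.00 for interferon, -0.66 for acute phase, -0.19 for immediate early and heat shock, -0.05 for p53 and -0.17 for growth factor signal genes.

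The count of higher genes depended on the reference class and the pseudocount. Against keratinocytes with no UMI of Mki67 or Top2a it was 178, and 100 of the 101 genes were among them. With cells of at least 5000 UMIs thinned to 5000 it was 115, with 91 shared. Their class was still set at full depth, and 76 to 205 shallower keratinocytes a library were left out. With a pseudocount of 10 CPM, which shrinks ratios of rare transcripts, 38 genes remained among the higher ones and 1 among the lower. Without uninjected 1 there were 134 higher and 47 lower genes.

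Within single dividing keratinocytes, UMIs of mitotic genes outnumbered those of replication genes, by lists of unequal length. The S list joined the replication and nucleotide lists (26 and 10 genes). The G2/M list joined the 4 mitotic lists (22, 24, 17 and 15 genes), and neither held Mki67 or Top2a. The S list took 0.168 and 0.241% of dividing cell UMIs in uninjected wounds and 0.240 and 0.241% in injected wounds, and the G2/M list took 0.483, 0.595, 0.624 and 0.660%. The G2/M share exceeded the S share in 99.5 and 98.8% of dividing cells of uninjected wounds, in all 163 cells of injected 1 and in 97.3% of those of injected 2. In non-dividing keratinocytes, where Stmn1 and tubulins of the G2/M list also count, it did so in 67.7 to 73.8%. Without Stmn1 and tubulins the G2/M list took 0.263 and 0.274% of dividing cell UMIs in uninjected wounds. It took 0.283 and 0.325% in injected wounds, above the S list in each library. Shares of single cells were not computed without these genes. Mki67 and Top2a are late cycle genes, so a rule built on them leans to the G2/M side. At a common 5000 UMIs per cell, Cenpf was found in 26.7 and 22.0% of dividing cells of uninjected wounds and in 30.1 and 34.4% of those of injected wounds, against 3.03 to 5.24% of non-dividing cells. Across the dividing cells of a library thinned to that depth, the S and G2/M UMIs had Pearson correlations of 0.188, 0.223, 0.202 and 0.061, over 187, 245, 163 and 186 cells that share a library and a depth.

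**Figure D2:**
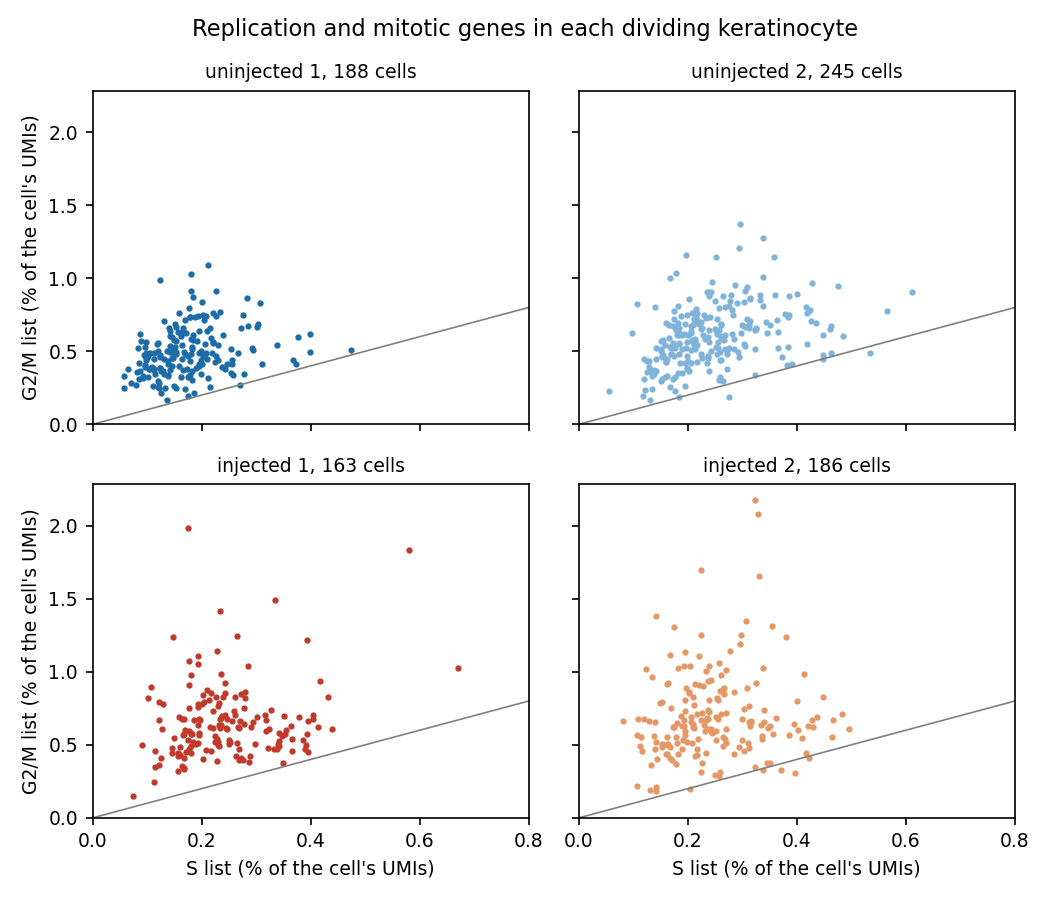
Share of a cell's UMIs in the S list (x axis, percent) and in the G2/M list (y axis, percent) for each dividing keratinocyte, 1 panel per library. The grey line marks equal shares, and nearly all points lie above it, 163 of 163 in injected 1. The G2/M list is the longer one and includes tubulins and Stmn1.

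Injection did not move that balance by more than the libraries differed. The ratio of G2/M to S UMIs was 2.88 and 2.47 in the uninjected and 2.60 and 2.74 in injected wounds. The injected values lay inside the uninjected range, the means were 2.67 ± 0.284 and 2.67 ± 0.095 (SD, n = 2), and the exact two-sided permutation test gave p = 1.0. With 2 libraries against 2 this test cannot give less than 0.333. Without tubulins and Stmn1, which resting cells also make, the means were 1.35 and 1.26. The group difference of the full ratio, near 0, was 0.198 without uninjected 1, -0.204 without uninjected 2 and 0.0644 without injected 1.

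Whether injected wounds held more dividing keratinocytes was asked of the share among all gated keratinocytes. It was 9.30% (95% Wilson interval 8.11 to 10.6%) and 11.2% (9.90 to 12.5%) in uninjected wounds, and 7.94% (6.85 to 9.19%) and 10.5% (9.13 to 12.0%) in injected wounds. These intervals cover counting error only. The groups overlapped: the means were 10.2 ± 1.31% and 9.21 ± 1.79% (SD, n = 2), a difference of -1.02 points with an exact permutation p of 0.667. On cell counts, edgeR's quasi-likelihood test gave a log2 change of -0.17 with an SE of 0.19. A share of 1 group above the other was not detectable with these libraries, and the size and direction turned on the minimum. With at least 3 UMIs the share was 17.5 and 16.6% in uninjected and 13.1 and 16.2% in injected wounds, which did not overlap (difference -2.38 points, exact permutation p = 0.333, the smallest this design allows). The direction turned with a minimum of 10 UMIs, which gave a difference of 0.136 points, and without injected 1, which gave 0.248 points.

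Depth bears on this share, since it sets who reaches 5 UMIs. Cells of at least 5000 UMIs thinned to 5000 left 3, 5, 4 and 8 dividing cells, a difference of 0.149 points (exact permutation p = 0.667). Cells of at least 10000 UMIs thinned to 10000 with a minimum of 10 left 0 and 0 dividing cells in uninjected and 2 and 3 in injected wounds (difference 0.182 points, exact permutation p = 0.333). The groups did not overlap there, but the 95% Wilson upper limits for the uninjected libraries, 0.250 and 0.211%, covered or nearly reached the injected shares of 0.142 and 0.222%. As both were sparse, cells of at least 10000 UMIs were also thinned to 10000 with a minimum of 2 UMIs, a setting chosen after seeing the data. The share was then 16.3 and 12.4% in uninjected wounds and 14.2 and 15.6% in injected wounds. Both injected values lay inside the uninjected range, with a difference of 0.578 points and an exact permutation p of 1.0. The order of the uninjected libraries was the reverse of that at full depth. Cells too shallow for this thinning numbered 490 and 380 in the uninjected and 642 and 425 in the injected libraries.

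**Figure D3:**
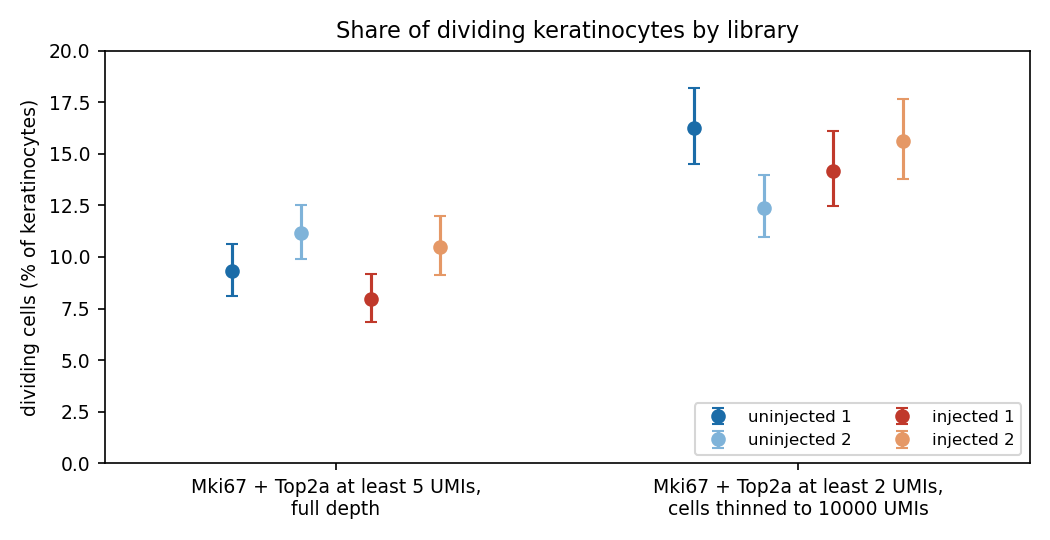
Dividing cells as a percentage of gated keratinocytes in each library, at full depth with at least 5 UMIs of Mki67 and Top2a (left) and thinned to 10000 UMIs with at least 2 (right). Points are libraries and bars are 95% Wilson intervals for counting error. Injected and uninjected libraries overlap in both settings, at 7.94 to 11.2% and 12.4 to 16.3%.

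Gene levels in dividing keratinocytes were then compared between injected and uninjected wounds. By edgeR's quasi-likelihood test on UMIs summed per library, 0 of 10899 genes (0.0%) passed a Benjamini-Hochberg adjusted p of 0.05, and 446 (4.09%) had an unadjusted p under 0.05. In simulated data for dividing cells that test recovered 13% of changes of 1 log2 unit and 92% of changes of 2 log2 units. The simulated libraries shared 1 profile and all genes 1 dispersion, without library differences such as that of uninjected 1. These shares therefore do not measure the power of the test here, and changes of 1 log2 unit could be missed. DESeq2 called 14 genes, 3 higher and 11 lower in injected libraries. Groups did not overlap for 3875 genes (35.6%). Non-dividing keratinocytes also gave 0 of 13883 genes (0.0%), with 739 (5.32%) at an unadjusted p under 0.05. These counts depended on the libraries: in both classes they were largest without uninjected 2, when uninjected 1 alone stood for its group. Uninjected 1 was the library set apart by ribosomal protein genes, at 20.0% of dividing cell UMIs against 10.2% in uninjected 2. CPM values from here on are on TMM-scaled library sizes.

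The smallest p-values in dividing keratinocytes belonged to genes that were lower after injection, and none passed the main test. Basp1, a membrane-associated signalling protein, stood at 147 and 136 CPM in uninjected wounds and 26.3 and 23.8 CPM in injected wounds. Its 2 groups were far apart, with means of 141 ± 8.30 and 25.1 ± 1.73 CPM (SD, n = 2) and a log2 change of -2.49 (SE 0.19, edgeR adjusted p = 0.114). Sap30l, related to a subunit of the Sin3 histone deacetylase complex, stood at 158 and 125 CPM in uninjected wounds and 22.1 and 21.6 CPM in injected wounds (log2 change -2.69, SE 0.21, adjusted p = 0.114). Ier5l, an immediate early response family member, stood at 30.8 and 22.2 CPM in uninjected wounds and 4.18 and 3.89 CPM in injected wounds (log2 change -2.70, adjusted p = 0.355). All 3 passed under DESeq2 and without the filter on low counts, at adjusted p from 1.99e-12 to 0.0099. With the replicate number as a block none of them passed (edgeR adjusted p 0.513, 0.513 and 0.642). With 1 library left out, their log2 changes ran from -2.91 to -2.42.

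The groups did not overlap for the next genes by p either. Cdc34, a ubiquitin-conjugating enzyme that acts with SCF ligases at the start of S phase, stood at 68.5 and 63.7 CPM in uninjected wounds and 22.6 and 25.9 CPM in injected wounds. Ube2m, which attaches NEDD8 to the cullins of those ligases, stood at 246 and 375 CPM in uninjected wounds and 43.2 and 77.3 CPM in injected wounds. Their log2 changes were -1.44 and -2.37, with edgeR adjusted p of 0.653 and 0.869. Both passed under DESeq2, at adjusted p of 0.0256 and 4.9e-05, as did Reln and AABR07073038.1 of those that follow (0.00548 and 0.0256). Atp13a4, Atp8a2 and Ca5b did not pass under DESeq2 (0.0655, 0.285 and 0.346). With the replicate number as a block none of the 7 genes of this paragraph passed (edgeR adjusted p 0.749 to 0.959). All 7 kept their direction with 1 library left out. Atp13a4 and Atp8a2, P-type ATPases, had log2 changes of -1.27 and -1.57, Reln, a secreted glycoprotein, of -2.10, and AABR07073038.1 of -1.55. Ca5b, a mitochondrial carbonic anhydrase, was the 1 gene of the 10 that was higher, at 10.9 and 10.9 CPM in uninjected wounds and 26.6 and 27.4 CPM in injected wounds (log2 change 1.31, adjusted p = 0.869).

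None of these 10 genes was shown to change differently after injection in dividing and non-dividing cells. In non-dividing keratinocytes the log2 changes were -2.08 for Basp1, -2.77 for Sap30l, -2.46 for Ier5l, -1.48 for Cdc34, -2.53 for Ube2m, -1.24 for Atp13a4, -1.60 for AABR07073038.1 and 1.31 for Ca5b. They were smaller than in dividing cells for Reln, at -1.13 against -2.10, and for Atp8a2, at -0.85 against -1.57. The difference between the classes, tested as an interaction in edgeR, did not pass for any of the 10, with adjusted p from 0.161 (Reln) to 0.996. The interval of that difference was widest for the rarer genes: its SE was 0.31 for Atp8a2, against 0.13 for Basp1.

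**Figure D4:**
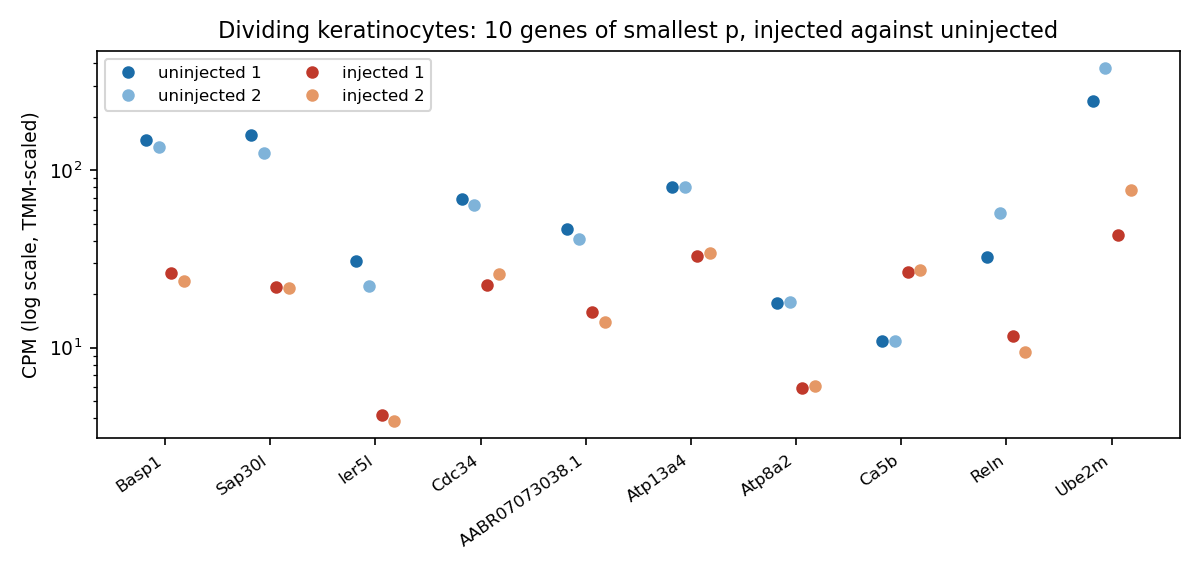
Levels in dividing keratinocytes, in CPM on a log axis with TMM-scaled library sizes, of the 10 genes with the smallest p for injected against uninjected wounds. Each point is 1 library, and the 2 injected points lie below both uninjected points for 9 genes and above them for Ca5b. None of the 10 passed the adjusted threshold.

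The cell cycle machinery of dividing keratinocytes showed no called change after injection in any of its lists. Of the mitotic lists, 0 of 21 kinetochore, 0 of 24 spindle, 0 of 17 kinase and 0 of 15 anaphase genes passed, and the list medians of the log2 change were between 0.01 and 0.26, against 0.00 for all genes. The checkpoint kinase Bub1 stood at 36.8 and 51.5 CPM in uninjected wounds and 58.5 and 70.5 CPM in injected wounds (log2 change 0.54, edgeR adjusted p = 0.869), lowest in uninjected 1. Spc24, another part of the microtubule-binding complex, and Tpx2, a spindle assembly factor, were each high in uninjected 1 alone, at 184, 51.0, 51.4 and 56.5 CPM and 74.3, 33.9, 31.7 and 33.8 CPM. In the replication list 0 of 26 passed (median 0.07), and Cdt1, a licensing factor, had the smallest p at 6.95, 6.31, 3.66 and 3.04 CPM. Among cyclins, kinases and inhibitors 0 of 24 passed (median 0.13), and 6 did not overlap, each higher in injected libraries, where 18.5% of all genes were. Tyms stood at 19.9 and 20.5 CPM in uninjected wounds and 27.9 and 28.4 CPM in injected wounds (log2 change 0.48, adjusted p = 0.869).

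MHC genes had the largest list median. In dividing keratinocytes 10 of 12 tested members were higher after injection and 7 did not overlap (18.5% of all genes did so in that direction), with a median log2 change of 1.12, but 0 passed. RT1-A2, a classical class I gene, stood at 12.7 and 79.5 CPM in uninjected wounds and 264 and 469.6 CPM in injected wounds. The 2 uninjected libraries differed from each other by several fold, and the log2 change was 2.97 (SE 0.83, edgeR adjusted p = 0.869). The share of dividing cells with RT1-A2 at 5000 UMIs was 4.81 and 31.4% in uninjected wounds and 71.8 and 87.6% in injected wounds. Class I genes of this family are close copies, and no label or header tells how reads were divided among them. The class II genes RT1-Ba, RT1-Bb and RT1-Da had log2 changes of 1.85, 1.77 and 1.98 from at most 51.4 CPM, all of which could be free RNA by the limit used here. The dendritic and Langerhans list, which holds class II genes, moved with them, at 0.00143 and 0.00506% of dividing UMIs in uninjected wounds and 0.00891 and 0.0121% in injected wounds. Its part was not tested. In non-dividing cells 12 of 12 MHC genes were higher (49.6% of all genes were), with a median of 0.98.

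Interferon and hypoxia genes gave smaller medians. Of 20 tested interferon response genes, 0 passed, 15 were higher (50.1% of all genes were) and the median was 0.36. Ifi27 stood at 167 and 165 CPM in uninjected wounds and 312 and 255 CPM in injected wounds, while Isg15 went the other way, at 35.9 and 9.87 CPM in uninjected wounds and 6.09 and 5.58 CPM in injected wounds, so the list did not move as 1. Of 21 hypoxia and glycolysis genes, 0 passed, 13 were higher and the median was 0.27. Egln3, the oxygen-sensing hydroxylase induced by HIF, stood at 30.3 and 40.1 CPM in uninjected wounds and 79.2 and 63.6 CPM in injected wounds (log2 change 1.01, SE 0.23, edgeR adjusted p = 0.869). P4ha1, a collagen prolyl hydroxylase, stood at 64.4 and 89.9 CPM in uninjected wounds and 126 and 111 CPM in injected wounds, and Bnip3 at 15.5, 54.0, 115 and 64.9 CPM.

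Cytokines gave no called change in dividing keratinocytes after injection. Of 26 tested, 0 passed, 10 were higher (50.1% of all genes were), 16 were lower and the median was -0.19. In 5 of them the groups did not overlap with injected libraries lower, as in 17.1% of all genes. Il36g, an epidermal alarm cytokine, stood at 18.5 and 12.7 CPM in uninjected wounds and 4.18 and 9.47 CPM in injected wounds, and Il1rn, the interleukin 1 receptor antagonist, at 138 and 95.7 CPM in uninjected wounds and 74.9 and 77.1 CPM in injected wounds. Neither overlapped, and both had an edgeR adjusted p of 0.869. Of 21 growth factor signal genes, 0 passed and 15 were higher (median 0.19). Wnt10a, a Wnt ligand of proliferating epidermis, stood at 22.9 and 43.4 CPM in uninjected wounds and 50.1 and 72.0 CPM in injected wounds and Epgn, an EGF receptor ligand, at 58.6 and 60.7 CPM in uninjected wounds and 68.2 and 131 CPM in injected wounds. Of 18 basal genes 0 passed (median 0.03), with the hemidesmosome linker Dst at 78.3, 62.0, 99.1 and 99.4 CPM. Wound-edge genes gave 0 of 18 (median -0.23), p53 targets 0 of 16 (median 0.24), immediate early and heat shock genes 0 of 17 (median 0.01) and ribosome biogenesis 0 of 19 (median -0.11). Fbl, a nucleolar methyltransferase, stood at 51.9, 40.8, 31.5 and 31.5 CPM. No gene passed in the nucleotide supply (0 of 10, median 0.00), replication-dependent chromatin (0 of 16, -0.08), cell cycle transcription (0 of 13, 0.09), condensation (0 of 17, -0.06), follicle (0 of 11, 0.03), differentiation (0 of 12, 0.03) and acute phase (0 of 7, 0.24) lists.

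Whether the injected difference was the same in dividing keratinocytes as in their non-dividing neighbours was tested with an interaction term over 8 sums, with the library as a block. Of 13452 genes, 2 passed (0.0149%), and 832 (6.18%) had an unadjusted p under 0.05. This count depended on each library, being 27 when uninjected 1 was left out, 51 when uninjected 2 was, 39 when injected 1 was and 15 when injected 2 was, and it was 165 without the filter on low counts. The first was Krtdap, a secreted protein of differentiating keratinocytes. In dividing cells it stood at 851 and 215 CPM in uninjected wounds and 167 and 420.4 CPM in injected wounds, and in non-dividing cells at 1424 and 357 CPM in uninjected wounds and 149.7 and 330.3 CPM in injected wounds, without TMM scaling. The log2 class ratio was -0.74 and -0.73 in uninjected wounds and 0.15 and 0.35 in injected wounds, so dividing cells held less than their neighbours in uninjected wounds and slightly more in injected ones. The difference of log2 changes was 1.003 (SE 0.09, edgeR adjusted p = 0.00384). It held without each library in turn (0.90 to 1.10), but was 0.42 with an adjusted p of 0.554 for cells with at least 10 UMIs of Mki67 and Top2a. The cap on Krt1 and Krt10 removed otherwise dividing cells from uninjected 2 and injected 2 and none from uninjected 1 and injected 1. Both classes together went from 2024 to 2022 and from 2227 to 2197 cells in the uninjected libraries under that cap. In the injected libraries they went from 2063 to 2053 and from 1885 to 1776 cells. The part of the cap was not tested.

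The second was Ccl2, the main monocyte attractant. Dividing cells stood at 2276 and 1654 CPM in uninjected wounds and 2061 and 1321 CPM in injected wounds, and non-dividing cells at 2885 and 1974 CPM in uninjected wounds and 3718 and 2657 CPM in injected wounds. The log2 class ratio was -0.34 and -0.26 in the uninjected and -0.85 and -1.01 in the injected libraries, so Ccl2 was lower in dividing cells throughout and by more after injection. The difference was -0.62 (SE 0.07, edgeR adjusted p = 0.0208). This call was lost with doublets removed (-0.58, adjusted p = 0.112), at a minimum of 3 UMIs (-0.51, adjusted p = 0.386) and of 10 UMIs (-0.44, adjusted p = 0.574), and against cells with 0 UMIs (-0.71, adjusted p = 0.0672). Up to 16.2% of the Ccl2 of dividing cells could be free RNA.

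Just below the threshold stood Lyz2, Penk, Timp1 and Sbsn, named after their values were seen. Sbsn, which is made with Krtdap during differentiation, had class ratios of -0.73, -0.83, -0.28 and -0.23 and an edgeR adjusted p of 0.129. Timp1, an inhibitor of matrix metalloproteinases, had class ratios of -0.03, 0.34, -0.51 and -0.71 (adjusted p = 0.129). Lyz2, the lysozyme of myeloid cells, and Penk had adjusted p of 0.0683 and 0.0808, and all of either in dividing cells could be free RNA.

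**Figure D5:**
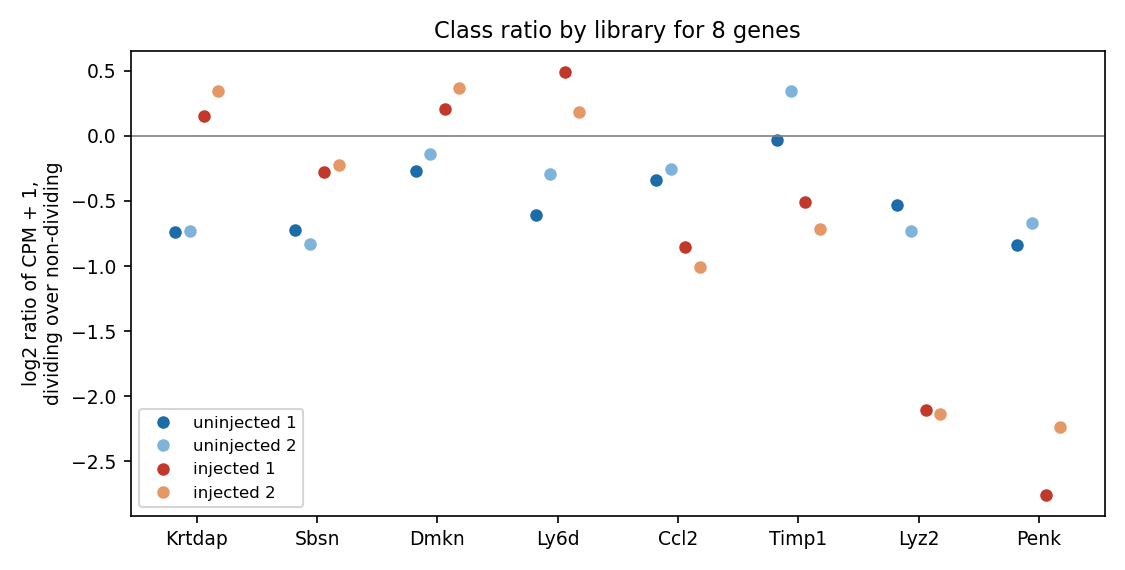
Log2 ratio of CPM + 1, dividing over non-dividing keratinocytes, in each library for 8 genes. Points are libraries and the horizontal line marks equal levels. Krtdap lies below the line in both uninjected libraries (-0.74 and -0.73) and above it in both injected libraries (0.15 and 0.35). Krtdap and Ccl2 passed the test of the difference, and the other genes are shown for comparison.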

How the data were processed

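Skin of 4 rat wound libraries, 2 uninjected and 2 injected, was analysed as UMI count matrices. Each matrix gives, per the file headers, UMI counts made by the authors with Cell Ranger 7.2.0, whereas Cell Ranger 5.0.1 stands in the submitters' processing notes. These deposited counts are whole numbers without normalization. No label or header names a genome build, so RefSeq GRCr8 promoters were matched by symbol.

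Barcodes were gated as the report states, with Python 3.11.15. Counts were summed per library and class and tested by edgeR 4.0.16 in R 4.3.3 (quasi-likelihood, TMM, filterByExpr and no covariates), and p-values were adjusted by Benjamini-Hochberg over all genes tested. Libraries held 75823418 to 105605297 UMIs in all barcodes. The difference between classes used the library as a block over 8 sums, which leaves 2 residual degrees of freedom among libraries. Standard errors came from the quasi-likelihood F statistic. Shares and ratios were compared by exact two-sided permutation tests. Doublets were scored with Scrublet in scanpy 1.11.5 at 0.8% per 1000 cells. Thinning drew UMIs without replacement (seed 1).

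Free RNA was bounded from empty droplets (1 to 100 UMIs): were every pan-leukocyte UMI of dividing cells free, free RNA would be at most 4.58, 3.73, 2.52 and 4.97% of their UMIs, and a gene's largest possible free share follows from its level in empty droplets. The fits were tested on simulated data with known changes. Alternatives were DESeq2 1.42.0, RLE size factors, no filter, a replicate block, other cell sets and leaving out each library. Genes were named by rule: those passing, and otherwise the 10 of smallest p, the 12 of largest ratio in each direction at 50 CPM or more in the higher class, and up to 4 of each list. The members, the 23 lists and the tests were chosen with earlier results of these data known.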

Additional observations from a re-analysis of the deposited data

Results flagged for a closer look

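Krtdap was noted because its difference between injected and uninjected wounds differed between dividing and non-dividing keratinocytes by an interaction test in edgeR (difference of log2 changes 1.003, adjusted p = 0.00384). The log2 change was -1.15 in dividing and -2.18 in non-dividing cells, neither of which passed. In dividing cells the groups overlapped, at 851 and 215 CPM in uninjected and 167 and 420.4 CPM in injected wounds. Ccl2 was noted by the same test (difference -0.6211, adjusted p = 0.0208), with log2 changes of -0.45 in dividing and 0.15 in non-dividing cells.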

How the results depend on the processing

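In dividing keratinocytes the count of genes that passed, 0 as reported, was 14 with DESeq2, 3 without the filter on low counts, 8 with a crossed replicate block (chosen after seeing the data) and 0 to 810 with 1 library left out, the highest without uninjected 2. It was 0 with RLE size factors and with each other set of cells. In non-dividing keratinocytes leaving out 1 library gave 0 to 882, the highest again without uninjected 2. Each such fit leaves 1 group with 1 library, which is assumed to vary like the other group. Without uninjected 2 that library was uninjected 1, which stood apart by ribosomal protein genes. The count for the difference between classes, 2 as reported, was 11 with DESeq2, 165 without the filter, 7 without fibroblast-marked cells (chosen after seeing the data), 1 with doublets removed, 1 at a minimum of 3 UMIs, 27 at a minimum of 10 UMIs, 1 against cells with 0 UMIs and 15 to 51 with 1 library left out. The cause was not tested.

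The share of dividing cells changed sign at a minimum of 10 UMIs (0.136 points) and ran from -2.29 to 0.248 points with 1 library left out. Thinned to 3000 UMIs with at least 3 it was -0.0577 points. The G2/M over S ratio difference, near 0, ran from -0.204 to 0.198 with 1 library left out. Of the genes higher and lower by 1 log2 unit, 101 and 19, there were 178 and 54 against cells with 0 UMIs, 38 and 1 with a pseudocount of 10 CPM and 32 lower ones at 5000 UMIs. The lower ones numbered 24 to 47 with 1 library left out, the highest without uninjected 1.

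Deviations of same-numbered libraries showed little relation, with a correlation of -0.104 in dividing and -0.114 in non-dividing cells. Such values cannot decide whether the libraries are pairs, which the labels do not state, and the main fits did not pair them. With the replicate number as a block, 0 genes passed in dividing and 0 in non-dividing cells. Within number 1 and number 2 the share differed by -1.36 and -0.679 points. Depth limits the rarer genes, and 2 libraries a group limit each test.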
